A study of Danio rerio with 6 samples.

Results

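Gene expression was described in the regenerating heart of wild-type (WT) adult zebrafish (Danio rerio) 5 days after amputation, in a series on the role of Notch signalling. The description used the 3 WT samples of a series of 6 samples and all 32105 genes of its expression table. The WT fish carried no transgene, per the labels, and were of the TU-AB strain and 6 to 12 months old. They were kept at 4 fish per liter and received a heat shock of 1 h at 38 C every day after their hearts were amputated, as did the fish of the rest of the series. The rest of the series, 3 samples with a heat-shock transgene against Notch signalling, was not used. The WT group therefore stands for an injured heart under daily heat shock, and the series used here holds neither an uninjured heart nor one without heat shock. The labels name the tissue as heart, without saying which chambers were taken or whether each sample is 1 fish or a pool. The samples are called WT replicates 1, 2 and 3, and their spread may be technical.

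The zebrafish heart regrows muscle lost from its ventricle. In the days after injury the endocardium (its inner lining) and the epicardium (its outer layer) become activated. Blood cells clear debris, a fibrin and collagen matrix is laid down for a time, and surviving cardiomyocytes near the wound divide. Signals known to act in this process include retinoic acid made by aldh1a2, neuregulin, insulin-like growth factor 2, TGF-beta ligands and Notch receptors of the endocardium.

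The values are FPKM, fragments scaled to gene length and to library size, and so can be compared between genes within a sample. They added up to between 856353 and 914709 per sample. All means below are over the 3 samples and are given ± SD (n = 3). Genes above 0 numbered 23778, 23364 and 23995 in replicates 1, 2 and 3. A level of at least 1 FPKM in all 3 samples was reached by 13795 genes, 43.0% of the table, and 6611 genes were listed at 0 in all 3. Only 634 genes reached 100 FPKM in all 3 samples, and 132 reached 1000.

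Expression was concentrated in few genes. The 10 highest genes of each sample held 25.1%, 28.6% and 24.7% of its FPKM, and the 100 highest held 54.2%, 58.7% and 54.2%. In replicates 1, 2 and 3, 76, 51 and 76 genes sufficed for 50% of the FPKM. The 100 genes with the highest means included all 13 mitochondrially encoded protein genes, 42 cytosolic ribosomal protein genes, 11 sarcomere genes, 5 nuclear genes of oxidative phosphorylation and 4 globin genes.

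**Figure D1:**
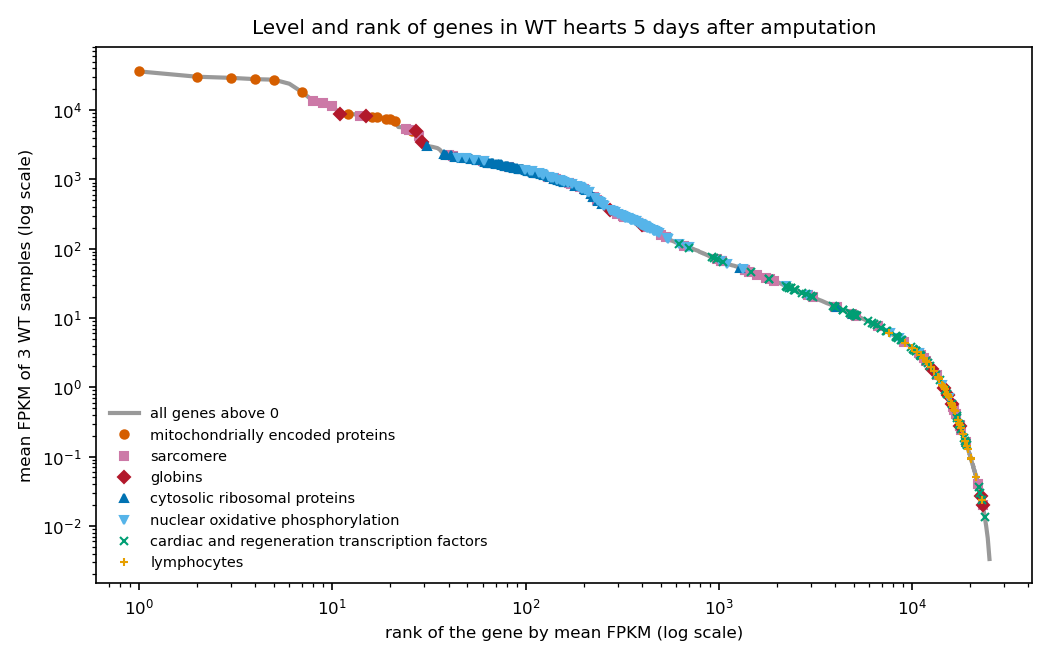
Mean FPKM of the 3 WT samples (log scale) against the rank of the gene (log scale). The grey line is all genes above 0, and symbols mark the members of 7 gene lists. Mitochondrially encoded genes and the highest sarcomere and globin genes are among the top ranks, and most ribosomal and respiratory chain genes follow. Other sarcomere and globin genes reach far lower ranks. Transcription factors and lymphocyte genes mostly lie below the ribosomal genes.

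The mitochondrial genome encodes core subunits of the respiratory chain and of ATP synthase, which supply the ATP of the beating heart. Of the FPKM of replicates 1, 2 and 3, its 13 protein genes took 24.2%, 28.2% and 22.4% (24.9 ± 2.96%). The gene mt-atp8, a subunit of ATP synthase, had the highest mean of all genes, with 31264, 42666 and 34308 FPKM. The next was mt-atp6 of the same complex, with 30235, 34194 and 26191 FPKM. In the authors' mean normalized count over all 6 samples, mt-atp8 had 110543 and mt-atp6 had 975181. The first rank of mt-atp8 thus holds for FPKM, which is scaled to gene length, and not for that count. All 13 were highest in replicate 2, and 11 of the 13 were lowest in replicate 3. The lowest of them, mt-nd5 of complex I, still averaged 5060 ± 1032 FPKM. The nuclear partners of these genes were lower and more even. Of 97 nuclear genes of oxidative phosphorylation, 91 were at or above 1 FPKM in all 3 samples and 84 at or above 100, with a median of 274 FPKM. Together they made up 5.45%, 5.26% and 5.10% of the FPKM. The cytochrome oxidase subunit cox6a2 (2063 ± 159 FPKM) and the ATP synthase subunit ATP5B (1929 ± 22.7 FPKM) were among the highest of them.

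The sarcomere list, the proteins of the contractile unit, held 62 matched genes, of which 51 were at or above 1 FPKM in all 3 samples. They made up 8.31%, 9.29% and 9.34% of the FPKM. The gene myl7, a myosin light chain used as a marker of zebrafish heart muscle, had 11341, 15848 and 13112 FPKM and ranked 8th. Cardiac actin actc1a had 11828, 12589 and 13709 FPKM. The myosin light chain cmlc1 (11374 ± 774 FPKM) and the tropomyosin tpm4a (8231 ± 356 FPKM) came next. For these 4 genes the highest sample was at most 1.40 times the lowest.

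Members of the same contractile family differed widely in level. The myosin heavy chain vmhcl had 5278, 5228 and 5583 FPKM, against 295, 316 and 346 FPKM for vmhc. Within each sample vmhcl was 17.9, 16.5 and 16.2 times vmhc. Both are ventricular myosins and closely related, so reads may have been split between them. The atrial myosin myh6 had 28.4, 27.4 and 8.39 FPKM, so replicate 3 was far below the other samples, which lay close together. Cardiac actin actc1a was 3.31, 2.73 and 3.18 times acta1b, an actin named for skeletal muscle. The troponin C genes parted between samples: tnnc1a had 1654, 2567 and 2589 FPKM, and tnnc1b had 64.2, 27.5 and 10.9 FPKM. The sample that was lowest for tnnc1a was thus highest for tnnc1b.

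Energy supply genes outside the respiratory chain were also high. Myoglobin (mb), the oxygen store of muscle, had 24473, 22535 and 24775 FPKM and ranked 6th, between mitochondrially encoded genes. Of 47 matched genes of glycolysis and creatine energy transfer, 42 were at or above 1 FPKM in all 3 samples and made up 2.58 ± 0.171% of the FPKM. The glycolytic enzyme gapdh had 5989, 6219 and 4698 FPKM, and the muscle creatine kinase ckma had 1975, 2636 and 2746 FPKM. Of 50 fatty acid genes, 36 were at or above 1 FPKM in all 3 samples. The fatty acid binding proteins fabp3 (884 ± 96.8 FPKM) and fabp11a (858 ± 41.7 FPKM) led them, and the oxidation enzyme acadvl had 200 FPKM in replicate 1, 362 in replicate 2 and 327 in replicate 3.

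Ribosomal proteins, the protein part of the translating ribosome, were the most even large class. All 83 cytosolic members were at or above 1 FPKM in all 3 samples and 80 at or above 100, with a median of 1367 FPKM. They made up 13.1%, 11.9% and 13.3% of the FPKM. The highest, rps2, had 3073, 3084 and 2972 FPKM, a spread of about 2% around its mean of 3043 FPKM. Elongation factor eef1a1l1, which carries aminoacyl-tRNA to the ribosome, averaged 5686 ± 348 FPKM and led 70 translation factors. The 72 mitochondrial ribosomal protein genes, all at or above 1 FPKM in all 3 samples, had a median of 38.0 FPKM and none reached 100 in all 3. The proteasome, which degrades tagged proteins, had 47 of 48 genes at or above 1 FPKM, led by psmb4 (135 ± 2.07 FPKM).

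**Figure D2:**
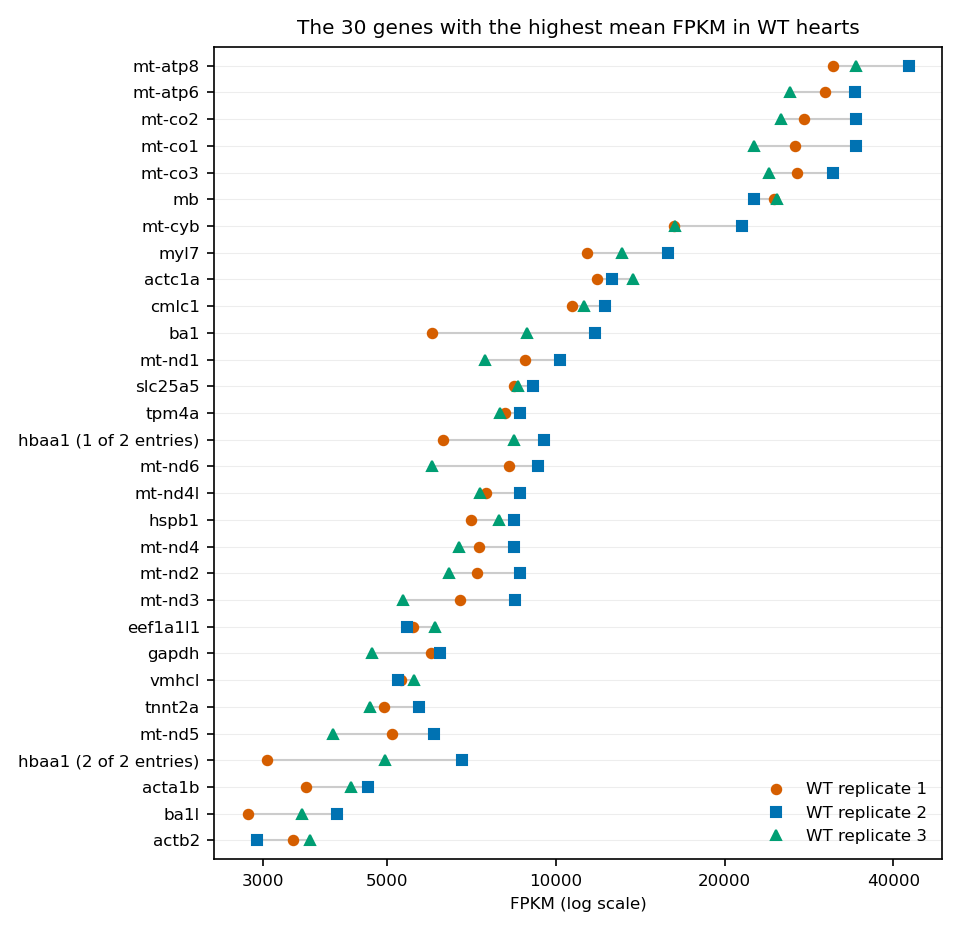
FPKM (log scale) of the 30 genes with the highest means in WT hearts, 1 point per sample and a grey line over their range. Mitochondrially encoded genes fill 13 of the 30 places, and the globin ba1 and the lower entry of hbaa1 have the widest ranges, with replicate 1 lowest.

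Red cell RNA was abundant. In bulk samples, fewer cells of a type and less RNA per cell cannot be told apart. The beta globin ba1 had 6015, 11763 and 8866 FPKM, and the alpha globin hbaa1 had 6284, 9531 and 8426 FPKM in the higher of its 2 entries and 3054, 6783 and 4948 FPKM in the other. The globin copies are close relatives, so reads may have been split among them. The globin list made up 2.14%, 3.60% and 3.07% of the FPKM, and 6 of its 7 members with a mean of at least 1 FPKM were lowest in replicate 1. The 9 lowest entries of the list carry names of embryonic globins (hbz, hbae and hbbe) and averaged between 0 and 1.84 FPKM. The highest of them, hbz, had 3.05, 1.05 and 1.42 FPKM and was highest in replicate 1. The heme synthesis enzyme alas2 had 95.0, 172 and 159 FPKM, and the red cell anion exchanger slc4a1a had 42.0, 82.8 and 73.7 FPKM. Of 35 such genes with a mean of at least 1 FPKM, 27 were lowest in replicate 1, against 21.8% of all 14609 genes at that level. Thrombocyte markers were low but present, with itga2b at 2.68 ± 0.326 FPKM and gp1bb at 15.5 ± 2.77 FPKM.

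Among cardiac hormones and load-responsive genes, the natriuretic peptide nppa had 1946, 1829 and 2207 FPKM and ranked 51st. Its relative nppb had 587, 913 and 888 FPKM, so the ratio of nppa to nppb was 3.32, 2.00 and 2.49. Of the 16 genes of this list with a mean of at least 1 FPKM, 11 were lowest in replicate 1, against 21.8% of all genes at that level. The widest spread among them was that of cyr61, a matricellular protein induced by stretch and growth factors, with 44.7, 188 and 178 FPKM. The calcium pump atp2a2a, which refills the sarcoplasmic reticulum, averaged 810 ± 49.1 FPKM, and the sodium-calcium exchanger slc8a1a averaged 407 ± 39.8 FPKM. The pump gene atp2a2a stood at 82.2, 82.0 and 76.3 times its paralog atp2a2b.

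Cardiac transcription factors were measured well below the structural genes. Of 79 factors, 60 were at or above 1 FPKM in all 3 samples and none at or above 100, with a median of 7.22 FPKM. The highest were hand2 (147, 99.8 and 101 FPKM), a factor of myocardium and epicardium, and nkx2.5 (104 ± 7.91 FPKM), a heart muscle factor. Of the GATA factors, gata5 averaged 75.2 ± 19.2 FPKM, GATA6 73.2 ± 4.63 FPKM and gata4, which marks regenerating muscle in reporter fish, 25.7 ± 1.41 FPKM. The limb and heart factor tbx5a averaged 45.8 ± 10.1 FPKM, and the entry named RUNX1 (2 of 2) averaged 3.49 ± 0.694 FPKM. The neural crest and progenitor factor sox11b (5.43 ± 4.27 FPKM, highest in replicate 2) and the factor klf11b (27.3, 5.04 and 11.2 FPKM, highest in replicate 1) had the widest spreads of the list.

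The other tissue layers of the heart were all detected. Of the endothelial and endocardial markers, the adhesion protein cdh5 had 52.5, 54.9 and 59.4 FPKM and the VEGF receptor kdrl averaged 31.7 ± 6.02 FPKM. Of the 59 genes of that list, 51 were at or above 1 FPKM in all 3 samples. The median SD of log2(FPKM + 0.5) of its 53 genes with a mean of at least 1 FPKM was 0.21, against 0.16 for all genes at that level. The highest sample was at least 2 times the lowest for 6 of the 53, against 5.39% of all genes. The vascular marker EGFL7 had 22.5, 46.2 and 44.0 FPKM and was lowest in replicate 1. The water channel aqp8a.1 had 647, 388 and 365 FPKM and the vascular factor etv2 averaged 5.90 ± 2.81 FPKM, both highest in replicate 1. The genes of the list thus differed in which sample stood apart. Epicardial markers were highest in replicate 1 without exception among the 5 checked. The epicardial factor tcf21 had 75.4, 38.1 and 39.7 FPKM, and wt1b had 24.8, 10.5 and 13.3 FPKM. The retinoic acid enzyme aldh1a2, made in epicardium and endocardium after injury, had 178, 126 and 126 FPKM, and tbx18 had 28.3, 18.6 and 19.9 FPKM. Replicate 1 lay above both other samples for each of these genes. The highest members of the epicardial list were anxa2a, a membrane-binding protein, with 1851 FPKM in replicate 1, 1062 in replicate 2 and 1426 in replicate 3, and krt8, an epithelial keratin, with 1566, 928 and 1213 FPKM. The growth factor mdka had 1185, 578 and 725 FPKM. Many cell types make these 3 genes. Of 38 genes of the list with a mean of at least 1 FPKM, 32 were highest in replicate 1, against 50.9% of all genes at that level.

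Matrix genes showed a similar split with replicate 2 lowest. The collagen genes col1a1a and col1a2, which encode chains of fibrillar collagen I, had 349, 162 and 307 FPKM and 354, 173 and 313 FPKM. Their ratio was 0.987, 0.938 and 0.981, so they kept step. Another collagen I gene, col1a1b, had 389, 179 and 332 FPKM. The matrix protein sparc had 631, 326 and 503 FPKM and the proteoglycan lum had 69.3, 22.4 and 34.7 FPKM. Fibronectin, which is laid down around regenerating muscle, was present from both genes, with fn1b at 534, 344 and 283 FPKM and fn1a at 171, 68.7 and 92.1 FPKM. Of 62 matrix genes with a mean of at least 1 FPKM, 47 were highest in replicate 1 and 48 lowest in replicate 2. Among all 14609 genes at that level these shares were 50.9% and 60.4%. The smooth muscle actin acta2 ran the other way, with 99.9, 137 and 181 FPKM, while tagln had 332, 208 and 211 FPKM and the smooth muscle myosin myh11a 5.49 ± 1.63 FPKM.

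Macrophage markers were clearly measured. The macrophage gene mpeg1 had 33.2, 23.1 and 20.3 FPKM, the scavenger receptor marco averaged 45.3 ± 9.26 FPKM and the complement gene c1qa averaged 43.8 ± 3.95 FPKM. Of 56 macrophage-list genes, 45 were at or above 1 FPKM in all 3 samples. The highest of the list were the ferritin fth1a (1370.4 ± 82.4 FPKM), which stores iron in many cell types, and the antigen presentation chaperone cd74a (434, 306 and 359 FPKM). The granulin grn2 had the widest spread, with 16.7, 3.87 and 3.40 FPKM, and was high in replicate 1 alone. Of 31 neutrophil-list genes, 25 were at or above 1 FPKM in all 3 samples, with a median of 4.00 FPKM. The granule proteoglycan srgn, which other blood cells also make, led them with 173 ± 16.1 FPKM, followed by the complement protease cfd with 161 ± 5.11 FPKM. The peroxidase mpx had 1.98, 0.890 and 0.810 FPKM and the lysozyme lyz averaged 4.00 ± 1.63 FPKM. The chemokine cxcl8a, which attracts neutrophils, had 15.8, 3.07 and 3.04 FPKM and was high in replicate 1 alone. Of 41 lymphocyte-list genes, 14 reached 1 FPKM in all 3 samples, against 43.0% of all genes of the table. The list's median of 0.803 FPKM compares with 0.577 FPKM for all genes of the table. The T cell kinase lck averaged 1.00 ± 0.317 FPKM and the B cell gene cd79a 0.933 ± 0.0839 FPKM. The general leukocyte marker ptprc averaged 11.8 ± 1.60 FPKM. Of 50 interferon response genes, 39 were at or above 1 FPKM in all 3 samples. The antigen presentation gene b2m led them with 736, 554 and 584 FPKM, and the antiviral gene mxb had 5.80, 1.77 and 8.69 FPKM.

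Markers of organs other than the heart were mostly close to 0. The liver genes fabp10a and apoa2 averaged 0.0667 and 0.0133 FPKM, the brain gene elavl3 was listed at 0 in all 3 samples, and the pancreatic gene cpa1 averaged 0.0167 FPKM. Exceptions were tfa, which encodes the iron carrier transferrin and had 186, 86.1 and 108 FPKM, and ctrb1, the pancreatic protease precursor chymotrypsinogen, with 1.48, 35.6 and 5.31 FPKM. Fast skeletal muscle genes gave a trace that was highest in replicate 1: mylpfa had 4.96, 0.380 and 0.540 FPKM and pvalb4 had 4.99, 0.240 and 0.240 FPKM. The 8 cardiomyocyte markers checked added up to between 30364 and 36957 FPKM per sample, and the 4 skeletal muscle markers to between 1.33 and 9.30 FPKM.

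**Figure D3:**
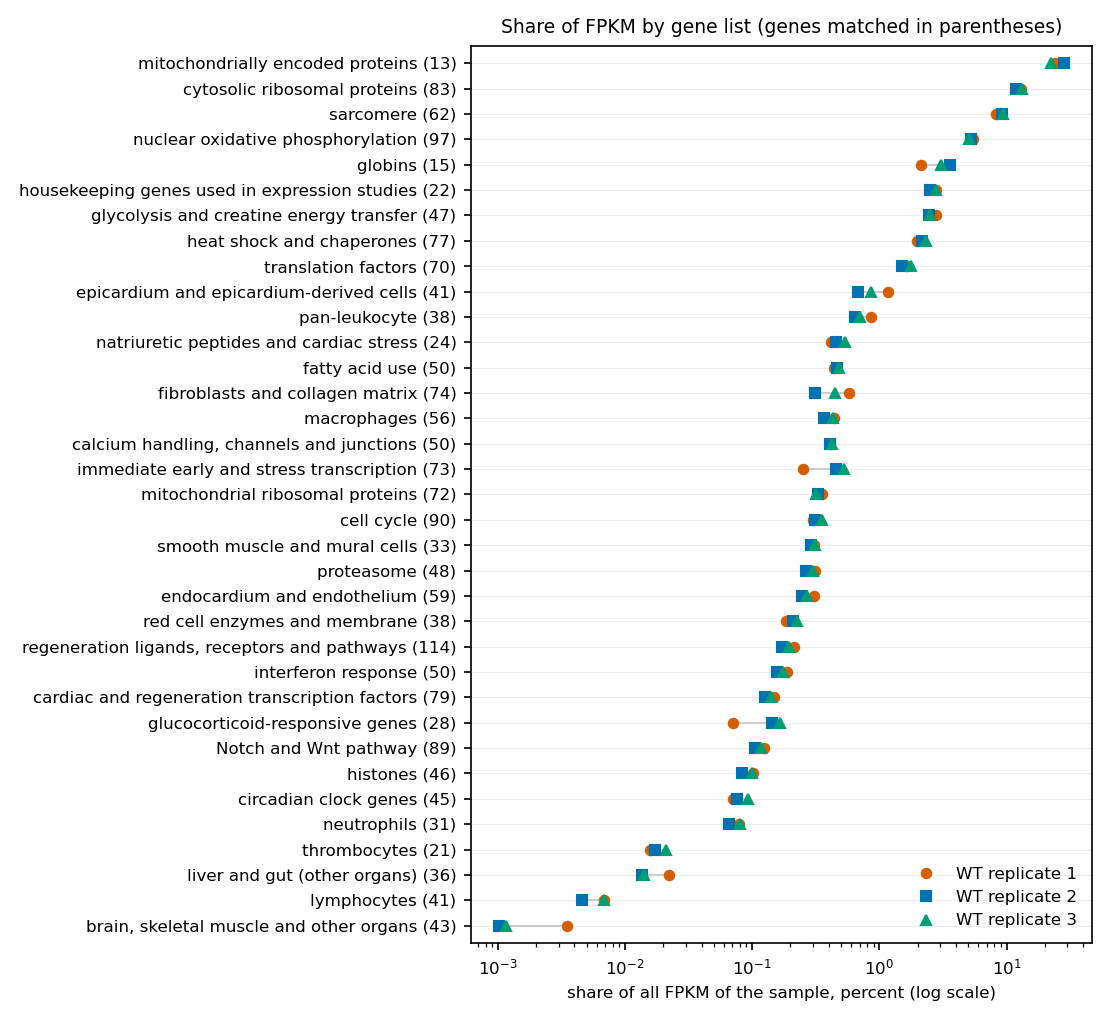
Share of each sample's FPKM (percent, log scale) taken by 35 gene lists, 1 point per WT sample, ordered by mean share. Shares span from 24.9% for mitochondrially encoded genes to 0.00190% for genes of brain, skeletal muscle and other organs. Lists overlap, so shares do not add up.

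Genes of the regeneration pathways were detected at low to moderate levels. Of 114 ligands, receptors and modifiers, 74 were at or above 1 FPKM in all 3 samples, with a median of 4.21 FPKM. The retinol carrier RBP4 led them with 257 ± 27.9 FPKM. The TGF-beta ligand tgfb2 had 108, 110 and 130 FPKM and was 15.6, 21.7 and 22.7 times tgfb1a. Another ligand of the family, tgfb3, averaged 91.8 ± 8.88 FPKM. The growth factor igf2b averaged 27.3 ± 3.41 FPKM, and the entry NRG1 (neuregulin, a mitogen for heart muscle) averaged 0.573 ± 0.0306 FPKM. The vasoactive peptide gene edn1 had 35.4, 10.3 and 18.5 FPKM and the cytokine il11a had 2.37, 3.39 and 6.37 FPKM. These had the widest spreads of the list.

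Notch receptors pass signals between neighbouring cells, and Wnt signals act through beta-catenin. Of 89 genes of both pathways, 51 were at or above 1 FPKM in all 3 samples. The receptor notch1b had 30.7, 24.7 and 29.3 FPKM, above notch2 (12.1 ± 1.40 FPKM) and notch3 (5.23 ± 0.866 FPKM) in every sample. Relative to notch2 it stood at 2.26, 2.29 and 2.48 times. The receptor gene notch1a matched no entry and is not part of this order. The targets her6 and hey2 differed in evenness: her6 had 39.0, 35.5 and 36.9 FPKM, and hey2 had 13.3, 6.09 and 6.67 FPKM. The hairy-related gene her15.1 had the widest spread of the list, with 4.87, 0.440 and 1.17 FPKM. All 3 were highest in replicate 1, as were 50.9% of all genes with a mean of at least 1 FPKM. The beta-catenin genes ctnnb1 and ctnnb2 averaged 245 ± 19.2 and 61.7 ± 9.83 FPKM, and the secreted Wnt antagonist wif1 averaged 1.87 ± 0.265 FPKM.

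Cell cycle genes were present throughout. Of 90 genes, 82 were at or above 1 FPKM in all 3 samples, with a median of 6.16 FPKM. The replication clamp pcna had 53.9, 58.7 and 67.1 FPKM, the mitotic kinase cdk1 had 22.6, 24.0 and 33.5 FPKM and the proliferation marker mki67 had 3.75, 3.21 and 5.34 FPKM. Replicate 3 was highest for all 3 of these genes. It was highest for 72 of 83 cell cycle genes with a mean of at least 1 FPKM, against 34.6% of all genes at that level. After scaling the samples to equal median ratios the count was 70 of 83, against 27.6% of all genes. The summed FPKM of the list was 2601, 2841 and 3051 in replicates 1, 2 and 3 as deposited, and was highest in replicate 2 after that scaling. The cyclin gene ccng1 alone had 1493, 1723 and 1712 FPKM. Without it, the sum was 1108, 1117 and 1339 FPKM as deposited, and replicate 3 was highest under both scalings. That sum without ccng1 was 1.21 times as high in replicate 3 as in replicate 1 as deposited. Large ratios were few, which does not say how even the list was. Only 2 of the 83 genes had a highest sample at least 2 times the lowest, against 5.39% of all genes at that level. Those were the lower entry of rrm2, a subunit of the enzyme that makes DNA precursors, and an identifier that the authors' table calls mcm5 and the gene name table calls hsp70.1.

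The agreement of the samples was described over 14609 genes whose mean reached 1 FPKM. The SD over the samples of log2(FPKM + 0.5) had a median of 0.16. The median was 0.22 for genes between 1 and 2 FPKM, 0.16 between 5 and 10, and 0.09 at 1000 and above, so by the median lower genes were less even. Large ratios did not follow that order. The highest sample was at least 2 times the lowest for 9.07% of genes between 1 and 2 FPKM and 4.05% between 5 and 10. That share was 6.66% between 100 and 1000 FPKM and 2.07% at 1000 and above. Across genes, Pearson's r was 0.972 between replicates 1 and 2, 0.974 between 1 and 3 and 0.983 between 2 and 3. These are across genes, which are not independent replicates. The median gene was 0.16 log2 units higher in replicate 1 than in replicate 2 and 0.04 higher than in replicate 3. A highest sample at least 2 times the lowest was found for 788 genes, 5.39% of the 14609.

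The gene lists differed in how even they were. Ribosomal proteins had a median SD of 0.05, proteasome genes 0.09, nuclear oxidative phosphorylation 0.11 and mitochondrial ribosomal proteins 0.11, all below the 0.16 of all genes. Globins (0.54), immediate early and stress transcription genes (0.51), fibroblast and matrix genes (0.45), natriuretic and stress genes (0.44) and epicardial genes (0.35) lay above it. A list of glucocorticoid-responsive genes, drawn up after the values were seen, had 0.49. In summed FPKM the highest sample was 2.08 times the lowest for immediate early genes (1.095 times without replicate 1), 1.78 times for globins, 1.76 times for matrix genes and 1.63 times for epicardial genes. For ribosomal proteins it was 1.05 times. On the deposited FPKM, the sum of the smooth muscle list was nearly flat at 1.01 times. Its shares of the FPKM were less flat, at 0.307%, 0.292% and 0.311%. The members of the list were not even, with a median SD of 0.26, and the myosin light chain myl9a (869, 874 and 810 FPKM) was its highest member.

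**Figure D4:**
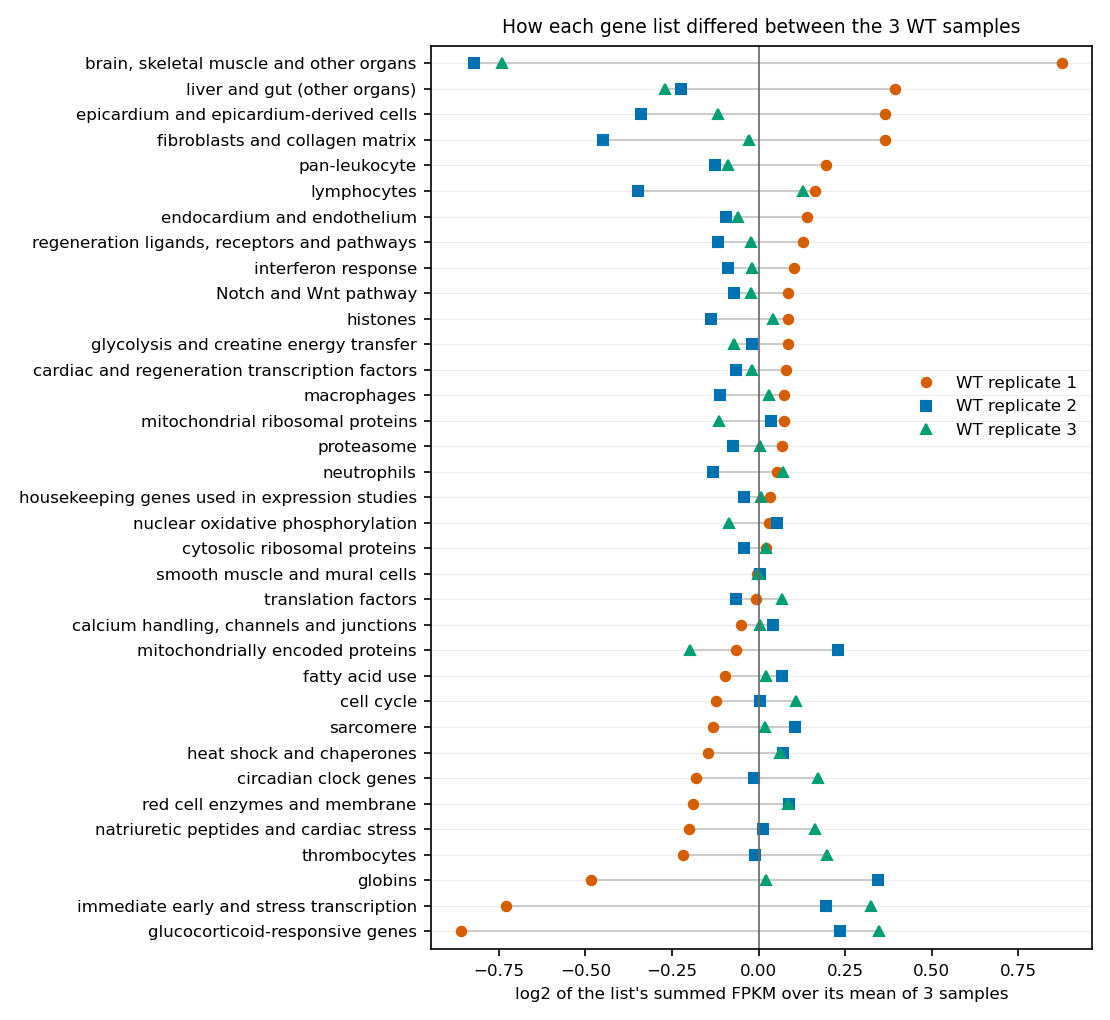
Log2 of each list's summed FPKM, as deposited, over its mean of the 3 WT samples, 1 point per sample, ordered by replicate 1. Replicate 1 lies highest for epicardial and matrix genes and lowest for globins and for immediate early and glucocorticoid-responsive genes, while the sums of ribosomal and smooth muscle genes lie near 0. The list of brain, skeletal muscle and other organs, widest of all, holds few of the FPKM.

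The classes that moved with replicate 1 kept their side under another scaling. The scalings were small, with FPKM sums at most 1.07 times apart and median ratios of 0.07, -0.11 and 0.04 on the log2 scale. They could hardly change the side of lists that differed more, so little is read from this. Immediate early genes, globins, red cell genes and glucocorticoid-responsive genes were lowest in replicate 1, and epicardial and matrix genes were highest there, on the deposited FPKM, after rescaling every sample to the same FPKM sum and after scaling to equal median ratios. In contrast, the highest sample for the sarcomere, ribosomal protein and heat shock lists changed with the scaling. Whether these lists moved together through shared cells was not tested.

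Large differences between the samples were few and uneven in kind. Of 8601 genes with a mean of at least 5 FPKM, 86 (1.00%) had a highest FPKM + 0.5 at least 4 times the lowest. In 56 of the 86, replicate 1 stood apart as low, and the other 30 were divided among the other patterns, at most 8 to each. Without replicate 1 the count was 31 in place of 86. At a ratio of at least 2 there were 367 genes, of which replicate 1 was low in 172. These 56 of the 8601 genes included 11 of the 73 matched genes of the immediate early and stress list and 3 of 77 of the heat shock list. They also included 4 of 28 of the glucocorticoid-responsive list and 3 of 45 of the clock list, both drawn up after the values were seen. Some were in more than 1 list, and the list sizes count genes at any level. At a ratio of at least 4, 8 of the 8601 genes were high in replicate 3. They included 2 of 77 of the heat shock list, 1 of 28 of the glucocorticoid-responsive list and 1 of 90 of the cell cycle list. That cell cycle entry is the identifier named mcm5 or hsp70.1, so it may not be a cell cycle gene.

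The genes low in replicate 1 included many fast-responding regulators. The nuclear receptor nr4a3 had 0.730, 63.6 and 65.0 FPKM and its relative nr4a1 had 15.9, 196 and 166 FPKM. The stress factor atf3 had 4.95, 158 and 144 FPKM and the AP-1 member jund had 5.76, 64.5 and 57.4 FPKM. For each of these, replicates 2 and 3 lay close together and replicate 1 far below both. The AP-1 member jun had 103, 255 and 238 FPKM and the stress gene gadd45g had 143, 218 and 205 FPKM, the same order over a narrower range. Of the 67 genes of the list with a mean of at least 1 FPKM, 52 were lowest in replicate 1, against 21.8% of all genes at that level. A ratio of at least 2 was found for 31 of the 67, against 5.39% of all genes. Only 8 of the 67 were highest in replicate 1, against 50.9% of all genes at that level. Among these 8 was zfp36l1a, which encodes an RNA-binding protein, with 90.1, 42.5 and 61.9 FPKM. The members of this list, as of every list, were chosen with earlier results of these data known. The counts set beside all genes are thus a description.

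Of 23 glucocorticoid-responsive genes with a mean of at least 1 FPKM, 19 were lowest in replicate 1, and of 41 clock genes, 19 were lowest and 10 highest there. Among all 14609 genes at that level, 21.8% were lowest and 50.9% highest in replicate 1. Both lists were drawn up after the values were seen, so these counts are a description. Some of the 23 genes, such as klf9, cebpd and DUSP1, are also in the immediate early list. The co-chaperone fkbp5, a known target of the glucocorticoid receptor, had 4.33, 241 and 246 FPKM, and klf9, another such target, had 1.61, 29.6 and 26.6 FPKM. The enzyme hsd11b2, which inactivates cortisol, had 67.6, 219 and 208 FPKM. Its range was narrower, and again replicate 1 lay below both others. The nocturnin gene ccrn4la had 1.55, 24.3 and 22.2 FPKM and nr1d2a, a repressor of the clock, had 12.9, 94.6 and 104 FPKM. Other clock genes were even, such as nr1d1 (54.0, 57.3 and 60.9 FPKM) and cry2a (38.1 ± 4.45 FPKM). The sarcomere gene tcap, which caps titin, had 29.1, 227 and 179 FPKM, and the small heat shock gene hspb9 had 5.06, 52.8 and 41.6 FPKM. Both were low in replicate 1.

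Other genes stood apart in other samples. The heat shock gene hsp70l, whose promoter responds to heat, had 4.77, 8.10 and 73.8 FPKM, so replicate 3 alone was high. The doubtful identifier named mcm5 or hsp70.1 had the same pattern, with 1.46, 2.97 and 17.1 FPKM. The chaperone genes hsp90ab1 and hsp90aa1.1 did not: hsp90ab1 had 1940, 1694 and 2022 FPKM and hsp90aa1.1 had 327, 313 and 353 FPKM. The small heat shock proteins hspb1 (7793 ± 687 FPKM) and hspb11 (1922 ± 610 FPKM) led the list, and hspb11 was lowest in replicate 1.

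The gene with the largest ratio, smim1, which encodes a small red cell membrane protein in humans, had 59.0, 56.9 and 0.380 FPKM. It was nearly absent from replicate 3 alone, although the globins were not low there. Members of a 12-copy family parted in the same sample: TNFRSF14 (2 of 12) had 0.890, 0.630 and 19.7 FPKM and TNFRSF14 (5 of 12) had 10.3, 11.5 and 0.710 FPKM. Reads of such copies may be shared between them. Among the 20 named genes with the largest ratios, 5S_rRNA, SNORA26 and dre-mir-132-3 are short RNAs at 0 in at least 1 sample, and in so short a gene a single fragment counts for a large FPKM. Another 4 genes with clone-style names or identifiers alone had ratios in the range of these 20.

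**Figure D5:**
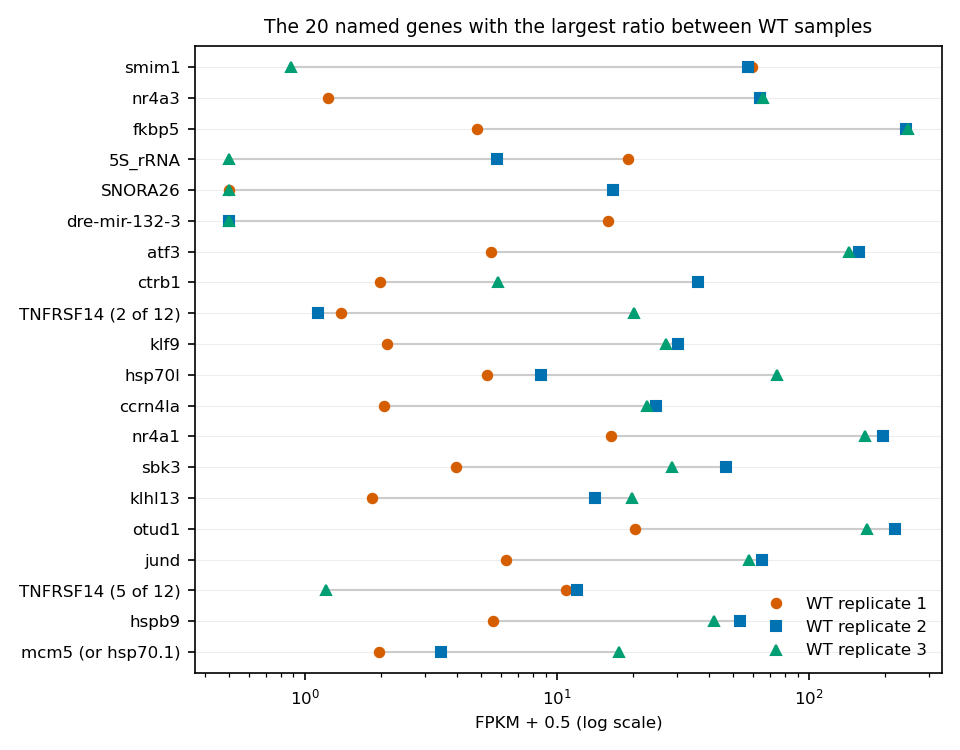
FPKM + 0.5 (log scale) of the 20 named genes with the largest ratio of highest to lowest sample among genes with a mean of at least 5 FPKM, 1 point per WT sample. In 11 of the 20, from nr4a3 to hspb9, replicate 1 is far below a close pair of replicates 2 and 3 or, for sbk3 and klhl13, below a wider pair.

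At the other end, 10 named genes with a mean of at least 50 FPKM had the smallest SD. The entry ISCU (2 of 2), a scaffold for iron-sulfur clusters, had 71.0, 70.9 and 70.9 FPKM. The ribosomal protein gene rps19 had 1212, 1214 and 1218 FPKM, and the nascent chain factor btf3 had 780, 774 and 773 FPKM. The others were tceb2, mtch2, rps27.1, rps9, rpl31, psmb1 and ptges3b. They were chosen as the most even of 1348 genes at that level, so their SDs are a description. Their evenness holds for the deposited FPKM. The median ratios of the samples were 0.07, -0.11 and 0.04 on the log2 scale, and scaling by them would make these genes less even.

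Genes often used to normalise expression measurements varied among themselves. All 22 matched were at or above 1 FPKM in all 3 samples, their median SD was 0.14, and none had a ratio of at least 2. Among the highest, RPS18 had 1606, 1499 and 1573 FPKM and eef1a1l1 had 5565, 5414 and 6079 FPKM. The widest were the tubulin tuba1c, with 66.5, 36.5 and 52.9 FPKM, and the ubiquitin gene ubb, with 209, 143 and 232 FPKM. For gapdh the highest sample was 1.32 times the lowest, and for actb2, with 3388, 2924 and 3632 FPKM, 1.24 times.

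The authors' other table carries a mean normalized count for part of the genes, over all 6 samples. Of 4745 genes with a mean of at least 10 FPKM and such a count, 29 had a count under 10. Among them was slc25a5, the mitochondrial ADP/ATP carrier, ranked 13th here with 8416, 9114 and 8548 FPKM, and the complement gene c1qc with 84.6 FPKM. The cut at 10 does not catch every gene with a low count for its level. The fatty acid binding protein fabp11a had 858 FPKM and a count of 615, while fabp3 had 884 FPKM and a count of 32358. The ubiquitin gene ubb had 195 FPKM and a count of 251, and ptges3b had 111 FPKM and a count of 43.6. The 2 tables were not reconciled for any of these genes, so their levels and ranks are uncertain.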

How the data were processed

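The authors deposited a table of FPKM for 32105 genes and 6 samples, and only its 3 WT columns were used. Per the file headers, the authors' comparison table adds a signal per gene, the mean normalized count over all samples, which served only as a check. The tools named, per the submitters' processing notes, were STAR, featureCounts, DESeq2, cutadapt and FastQC, without versions. Neither the genome build nor the annotation is given in the sources used here. The depth is unknown, because FPKM steps did not yield what 1 read is worth, so no counting interval is given.

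Symbols came from the authors' table for 24667 genes and, for 4330 more, from a table of gene names, and 3108 had an identifier only. With 1 group there was no test and no p-value. Spread is the SD of log2(FPKM + 0.5), for genes with a mean of at least 1 FPKM, or the ratio of highest to lowest FPKM + 0.5. The 35 gene lists overlap. Lists and members were chosen with earlier results of these data known. After values were seen, 14 list entries were removed, 2 entries added, 3 name patterns changed and 2 whole lists (glucocorticoid-responsive and clock genes) added. Named genes were the 30 highest means, the 4 highest and the 2 widest of each list, the 20 largest ratios at a mean of at least 5 FPKM, the 10 smallest SDs at a mean of at least 50, cell type markers and a fixed set of heart genes, of which postnb and notch1a matched none. Members named beyond that rule (atp2a2b, tgfb1a, tnnc1a, c1qc and zfp36l1a) were chosen after their values were seen. The spread functions were tested on simulated data. Python 3.11.15, pandas 2.3.3, numpy 2.4.6 and matplotlib were used.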

Additional observations from a re-analysis of the deposited data

How the results depend on the processing

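With 3 samples of 1 group, no value here has a test, and depth behind low values is unknown. Of the results recomputed, the number of genes detected and the count of list members at 1 FPKM stayed within 1.5 times the value reported under every alternative run, and the 30 highest genes were the same 30 throughout. The mitochondrially encoded share was 7.90% with the 10 highest genes left out, since 6 of the 13 are among those. The median SD was 0.10 with no filter on low genes and 0.19 after rescaling every sample to the same FPKM sum, and lay between 0.11 and 0.16 without each replicate in turn. The ratio for immediate early genes lay between 1.095 and 2.08 without each replicate in turn, lowest without replicate 1. Rescaling to equal FPKM sums or to equal median ratios made it slightly larger. The lowest Pearson's r was 0.964 with an added 0.1 and 0.988 with no filter. The number of genes with a ratio of at least 4 was 168 at a mean of at least 1 FPKM and lay between 31 and 68 without each replicate, lowest without replicate 1. A mean normalized count of at least 10 left 66, and the cell cycle sum's ratio was 1.21 without ccng1, both alternatives chosen after seeing the data. Leaving out 1 of 3 samples cannot move a mean by 1 SD, so nothing is read from that for the shares. Leaving out mitochondrially encoded genes moved 31 of the other 34 lists' shares by more than 1 SD, because the total is smaller. The median ratios behind the scaling were 0.07, -0.11 and 0.04 on the log2 scale. Of 35 lists, 17 kept their highest and 20 their lowest sample under all 3 scalings. For the 34 lists other than immediate early genes, the ratio of highest to lowest sum was also recomputed. It moved by at least the SD of its values without each replicate in 11 of 34 after rescaling to equal FPKM sums. After scaling to equal median ratios it did so in 19 of 34. No paired analysis was possible because only 1 group was described.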
